A study of Mus musculus with 10 samples.

Results

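The genes described here are 41 imprinted genes and neighbours that lie with them in 16 imprinted clusters of the mouse genome. They were taken by symbol from a list, and all 41 were found among the 21887 protein-coding genes of the RefSeq table for GRCm38.p6, the assembly that mm10 represents. A peak was given to every gene whose span it overlapped, and otherwise to the nearest protein-coding gene within 50 kb. At the limit of that rule, a region at chr7:6624289-6624506 lay 49.9 kb from Zim1 and was counted, and a region at chr6:31009190-31009354 lay 50.2 kb from Klf14 and was not.

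The binding of TET2, a dioxygenase that oxidises 5-methylcytosine, was mapped by ChIP-seq. The cells were mouse embryonic stem (ES) cells, the cultured counterpart of the early embryo's pluripotent cells. Wild-type cells (Tet2fl/fl, floxed and untagged) and Tet2-/- knockout cells were precipitated with a rabbit polyclonal antibody raised to the TET2 N terminus. FLAG-TET2 cells (Tet2fl/fl, with a 2x-Flag tag on the endogenous TET2) and their untagged parental cells (Tet2fl/fl) were precipitated with FLAG M2 affinity gel. All cells were grown in serum with leukemia inhibitory factor, the GSK-3 inhibitor CHIR99021 and the MEK1 inhibitor PD0325901, and were crosslinked with disuccinimidyl glutarate and formaldehyde. Each of the 4 groups had 2 libraries, and the authors deposited a peak list for each. The labels do not say whether replicates were separate cultures or whether a line was 1 clone, so the spread between replicates may be technical. Lists from wild-type and FLAG-TET2 cells are called target lists below, and knockout and parental lists, from cells without the epitope, control lists. An input and an IgG library were not analysed here.

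Imprinted genes are expressed mainly from the maternal or the paternal chromosome. The difference is set by differentially methylated regions, in which CG dinucleotides are methylated on the allele from one parent, and these marks are laid down in the germ line and kept through the demethylation of the early embryo by factors such as ZFP57 and TRIM28. Many of the genes act on growth, placenta and brain. TET enzymes take part in removing such methylation in germ cells, which is the link between TET2 and this gene family. The peak lists hold no information on alleles, methylation or expression, so they show where TET2 or FLAG precipitate was enriched and on neither parental copy in particular.

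In the series as a whole the lists differed widely in length, and the sequencing depth behind them is unknown. With the TET2 antibody there were 38536 and 18820 peaks in wild-type cells, against 2259 and 11696 in knockout cells. With the FLAG resin there were 63578 and 28245 peaks in FLAG-TET2 cells, against 36518 and 10122 in parental cells. Knockout replicate 1 and parental replicate 1 therefore stood apart from their partners, in opposite directions. The Tet2 gene itself had 8 and 4 peaks in the wild-type lists and 0 and 1 in the knockout lists, and 17 and 10 in the FLAG-TET2 lists and 9 and 0 in the parental lists. Peaks measure binding and do not test whether the allele was deleted or which cell type was present. For context, 6 of 8 pluripotency genes and 4 of 6 fibroblast genes had a common TET2 region as defined below, beside 13.6% of all genes.

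The promoters of imprinted genes are rich in CG dinucleotides to very different degrees, and the 8 shown here are examples with and without a peak. Each is the 250 bases upstream of a RefSeq start of GRCm38.p6, written 5′ to 3′ on the gene's own strand, with CG dinucleotides in capitals. Grb10 (an adaptor that dampens insulin and IGF signalling), Igf2r (the receptor that clears IGF2), Dio3 (a deiodinase that inactivates thyroid hormone), Phlda2 (a brake on placental growth), Plagl1 (a zinc finger transcription factor), Mest (a hydrolase-fold protein) and Blcap (the gene that contains Nnat) had a peak over the window. Igf2, the fetal growth factor, had none in any list and is shown for contrast.
Grb10 (chr11:12037421-12037670, minus strand): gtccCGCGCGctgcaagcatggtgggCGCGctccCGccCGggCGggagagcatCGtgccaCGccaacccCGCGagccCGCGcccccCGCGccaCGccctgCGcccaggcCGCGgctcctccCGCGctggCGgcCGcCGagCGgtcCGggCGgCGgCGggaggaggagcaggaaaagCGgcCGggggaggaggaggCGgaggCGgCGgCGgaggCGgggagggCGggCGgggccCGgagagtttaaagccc
Igf2r (chr17:12769707-12769956, minus strand): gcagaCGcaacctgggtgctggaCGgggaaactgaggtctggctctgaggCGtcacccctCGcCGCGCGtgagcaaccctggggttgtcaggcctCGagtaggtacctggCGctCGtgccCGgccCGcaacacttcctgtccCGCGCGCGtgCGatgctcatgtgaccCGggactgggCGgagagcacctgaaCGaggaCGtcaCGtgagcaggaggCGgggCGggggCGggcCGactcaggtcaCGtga
Dio3 (chr12:110278980-110279229, plus strand): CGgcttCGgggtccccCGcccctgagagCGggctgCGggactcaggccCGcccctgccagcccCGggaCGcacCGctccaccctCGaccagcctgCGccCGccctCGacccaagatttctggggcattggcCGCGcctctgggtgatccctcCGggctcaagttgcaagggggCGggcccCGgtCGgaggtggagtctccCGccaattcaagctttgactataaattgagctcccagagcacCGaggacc
Phlda2 (chr7:143502525-143502774, minus strand): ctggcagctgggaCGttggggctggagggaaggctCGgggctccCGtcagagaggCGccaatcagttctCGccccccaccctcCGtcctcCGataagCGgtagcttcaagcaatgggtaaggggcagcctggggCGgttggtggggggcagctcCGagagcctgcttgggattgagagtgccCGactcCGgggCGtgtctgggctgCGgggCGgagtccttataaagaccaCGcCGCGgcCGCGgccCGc
Plagl1 (chr10:13090582-13090831, plus strand): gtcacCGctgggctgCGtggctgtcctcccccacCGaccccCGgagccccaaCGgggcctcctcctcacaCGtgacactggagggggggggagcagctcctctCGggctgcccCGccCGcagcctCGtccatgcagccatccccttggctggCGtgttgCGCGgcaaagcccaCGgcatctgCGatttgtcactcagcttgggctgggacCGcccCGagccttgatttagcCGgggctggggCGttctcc
Mest (chr6:30737800-30738049, plus strand): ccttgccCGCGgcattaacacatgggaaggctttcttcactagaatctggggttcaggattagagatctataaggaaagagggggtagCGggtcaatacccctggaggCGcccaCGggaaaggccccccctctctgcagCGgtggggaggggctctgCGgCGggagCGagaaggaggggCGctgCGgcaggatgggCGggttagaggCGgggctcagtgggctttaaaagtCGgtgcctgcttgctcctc
Blcap (chr2:157566362-157566611, minus strand): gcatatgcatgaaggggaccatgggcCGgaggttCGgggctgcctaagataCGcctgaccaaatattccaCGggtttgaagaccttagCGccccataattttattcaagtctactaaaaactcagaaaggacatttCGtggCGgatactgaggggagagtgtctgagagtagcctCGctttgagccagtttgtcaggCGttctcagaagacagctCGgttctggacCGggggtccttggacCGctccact
Igf2 (chr7:142658805-142659054, minus strand): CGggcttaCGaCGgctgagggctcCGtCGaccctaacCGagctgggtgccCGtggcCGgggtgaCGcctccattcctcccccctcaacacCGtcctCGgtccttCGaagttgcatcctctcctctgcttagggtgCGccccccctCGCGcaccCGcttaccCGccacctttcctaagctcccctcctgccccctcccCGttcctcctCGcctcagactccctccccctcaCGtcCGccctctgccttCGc

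Of the 41 imprinted genes, 7 carried a common TET2 region, defined as a merged region that all 4 target lists and no control list held. They were Kcnq1, a voltage-gated potassium channel, Usp29, a deubiquitinase, Sgce, the epsilon-sarcoglycan, Ppp1r9a, which encodes the neuronal actin-binding protein neurabin, Plagl1, Grb10 and Ddc, the decarboxylase that makes dopamine and serotonin. This was 17.1% of the list, beside 13.6% of all 21887 genes. Where the knockout lists served as the only controls, 12 (29.3%) had such a region, beside 26.2% of all genes. The common regions at these 7 genes numbered 16, of which Ppp1r9a held 5, Ddc 3, and Usp29, Sgce and Grb10 2 each. The 7 genes fall in 5 clusters (Kcnq1, Peg3, Peg10, Plagl1 and Grb10), and no gene of the other 11 clusters carried one. The genes with a common region were long, with a median span of 107 kb (40.9 to 320 kb), beside 19.1 kb (1.07 to 468 kb) for the other 34. Over all genes the medians were 42.0 kb with and 15.1 kb without a common region, and the part of gene length in the count was not tested.

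The looser classes gave more genes. An anti-TET2 specific region, called in each wild-type replicate and absent from each knockout replicate, was found at 15 of 41 imprinted genes (36.6%), beside 32.0% of all genes. An anti-FLAG specific region, called in each FLAG-TET2 replicate and absent from each parental replicate, was found at 9 (22.0%), beside 24.1% of all genes. A control region, with a peak in at least 2 control lists, was found at 20 (48.8%), beside 41.7% of all genes. All 3 shares were near those of all genes. The counts moved with single lists, at these genes and over all genes. Without wild-type replicate 2, 28 (68.3%) had an anti-TET2 specific region, beside 53.6% of all genes. Without FLAG-TET2 replicate 2, 29 (70.7%) had an anti-FLAG specific region, beside 52.8%, and without parental replicate 1, 18 (43.9%), beside 39.0%. A peak in any list was found at 37 genes (90.2%), beside 78.4% of all genes. The 4 without any were Slc22a2 and Slc22a3, organic cation transporters of the Igf2r cluster, Ndn, a MAGE family gene of the Snrpn cluster, and Nnat, a small membrane proteolipid.

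**Figure D1:**
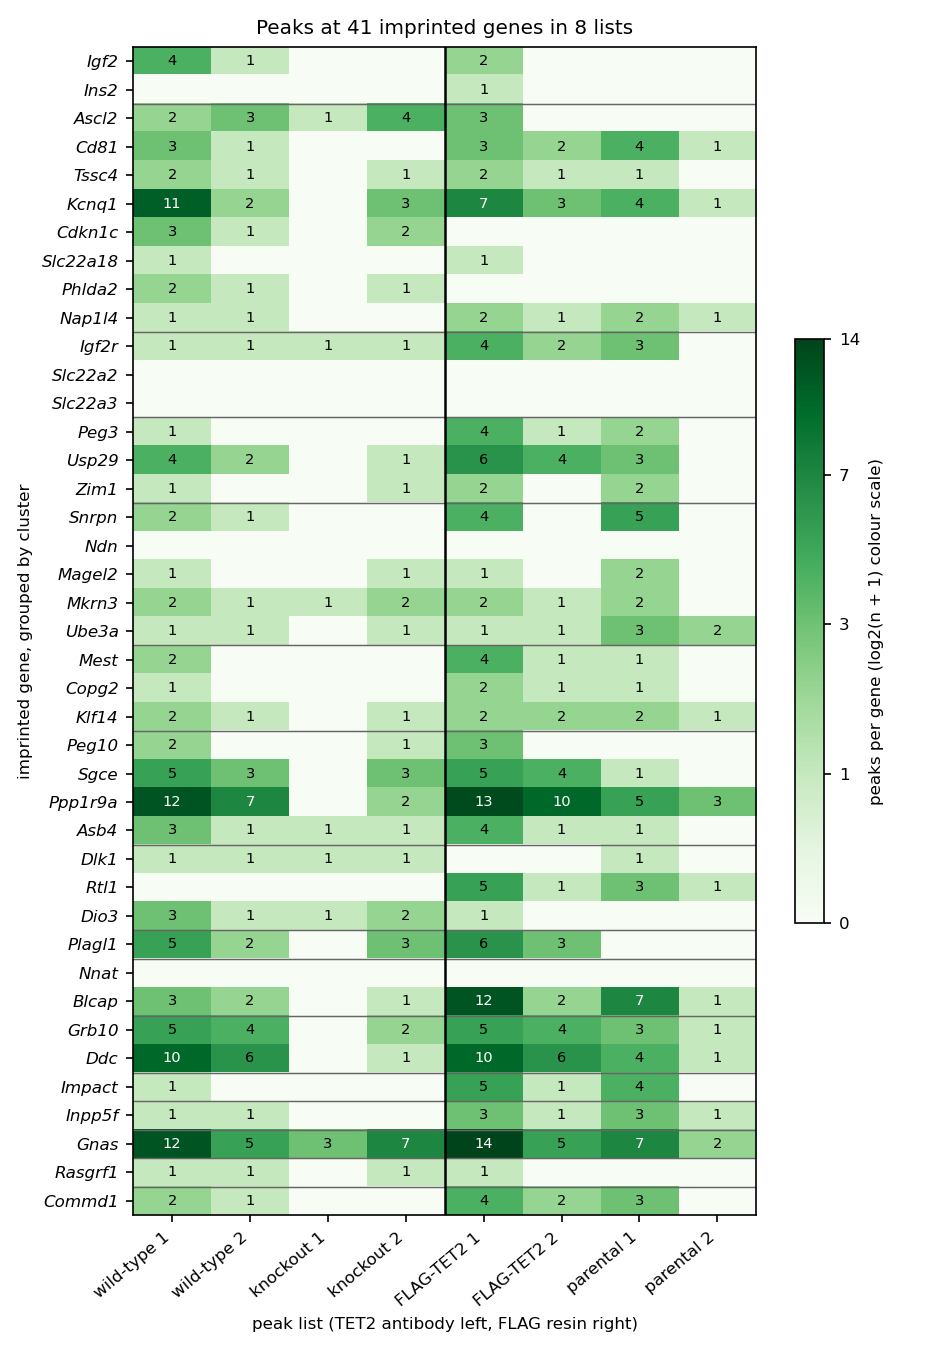
Number of peaks at each of the 41 imprinted genes (rows, grouped by cluster) in each of the 8 lists (columns, TET2 antibody left and FLAG resin right), on a log2(n + 1) colour scale with the count printed in each cell. The darkest rows are Gnas, Ppp1r9a, Kcnq1 and Ddc, and 4 rows are empty.

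The share of a list that lay at imprinted genes was lower in wild-type than in knockout lists, while FLAG-TET2 and parental lists overlapped. Per 1000 peaks of a list, 2.93 and 2.82 lay at imprinted genes in the wild-type lists (113 and 53 peaks) and 3.98 and 3.76 in the knockout lists (9 and 44 peaks). The FLAG-TET2 lists had 2.26 and 2.12 per 1000 (144 and 60 peaks) and the parental lists 2.16 and 1.58 (79 and 16 peaks). The wild-type shares were lower than the knockout shares without overlap (log2 ratio of the means of −0.43), and FLAG-TET2 replicate 2 was below parental replicate 1, with a log2 ratio of 0.23. The SD between replicates, pooled over the 4 groups, was 0.167 on this scale. The parental pair, 2.16 and 1.58, differed most, so this SD is not the spread of the TET2 arm alone. The mean of both arms, −0.10, averages 2 ratios of opposite sign. The ratio of each arm turned round when every list was shortened to its 2259 leading peaks, to 0.09 for the TET2 antibody and −0.68 for the FLAG resin.

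**Figure D2:**
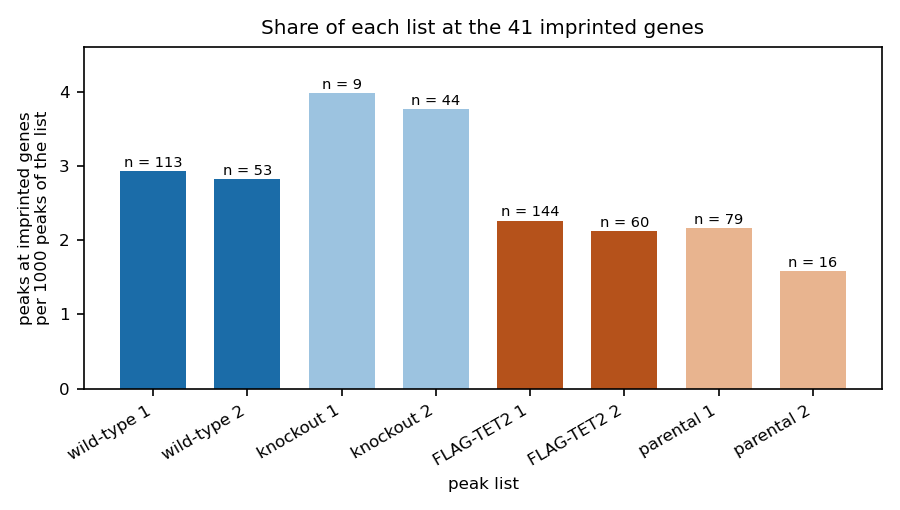
Peaks at the 41 imprinted genes per 1000 peaks of each list (vertical axis), with the number of peaks above each bar. The knockout bars, 3.98 and 3.76, are above the wild-type bars, and parental replicate 2 is lowest at 1.58.

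Counted gene by gene, 4 imprinted genes (9.76%) had more peaks in every target list than in every control list of both arms, beside 9.44% of all genes. They were Usp29, Ppp1r9a, Grb10 and Ddc. For each, a two-sided exact permutation test within reagents gave p = 0.0556, the smallest p that 36 arrangements allow, with an adjusted p of 0.462 over the 17182 genes with a peak, so no gene could pass the threshold of 0.05. With the TET2 antibody alone, 11 imprinted genes (26.8%) had more peaks in both wild-type than in both knockout lists, beside 28.8% of all genes. With the FLAG resin alone, 6 (14.6%) had more in both FLAG-TET2 than in both parental lists, beside 14.8% of all genes. Peaks per 1000 of the list, which take out list length, left Usp29 and Ddc of the 4 (4.88% of the list), beside 7.26% of all genes. Without FLAG-TET2 replicate 2, and likewise without parental replicate 1, the count was 7 (17.1%), beside 20.6% and 21.2% of all genes.

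The Grb10 cluster on chromosome 11 held common regions at both of its genes. Grb10 had 5 and 4 peaks in the wild-type lists against 0 and 2 in the knockout lists, and 5 and 4 in the FLAG-TET2 lists against 3 and 1 in the parental lists. Ddc had 10 and 6 in wild-type against 0 and 1 in knockout, and 10 and 6 in FLAG-TET2 against 4 and 1 in parental lists. In both genes and both arms the target lists lay above the control lists without overlap. Per 1000 peaks of the list, this held for Ddc and not for Grb10. The leading common region of Grb10, at chr11:11942481-11942935, lay inside the gene, 12.2 kb from its lower-coordinate end. Its fold enrichment at the summit, a linear ratio given by the authors, was 18.1 and 9.68 in the wild-type lists and 16.8 and 9.32 in the FLAG-TET2 lists. It ranked by −log10 q above 98.2%, 90.5%, 93.5% and 82.9% of the peaks of those lists, so it was among the stronger peaks of each. The second, at chr11:11948997-11949327, had folds of 8.69 and 8.40 in the wild-type lists and 12.1 and 6.61 in the FLAG-TET2 lists.

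Both lay far from the Grb10 starts, and the start region differed from them. A region over the CG-rich start, chr11:12037152-12037883, had folds of 9.02 and 5.01 in the wild-type lists against 6.64 in knockout replicate 2, and 5.42 in parental replicate 1 with no FLAG-TET2 peak. Within the 300-base start window itself, only the wild-type lists had peaks. In all 4 FLAG resin lists the highest fold at any of the 41 genes was at chr11:12025545-12026557, 1.92 kb downstream of another Grb10 start. It had folds of 78.7 and 53.4 in the FLAG-TET2 lists and 79.1 and 48 in the untagged parental lists, and of 7.72 and 6.41 in the wild-type lists with no knockout peak. It ranked above 99.9% and 99.7% of peaks in the FLAG-TET2 lists and above 99.8% and 98.7% in the parental lists, so it led the lists with and without the tag.

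At Ddc the 3 common regions sat on the side nearer its start. The region at chr11:11904889-11905478 upstream of the nearest start was the only one of the 16 that lay outside its gene's span, by 6.75 kb. It had folds of 11.1 and 6.04 in the wild-type lists, with 15.0 and 9.71 in the FLAG-TET2 lists. The region at chr11:11886008-11886262 was 4.27 kb downstream of a start, the nearest to a start of the common regions with a listed start, with folds of 9.69 and 10.1 in the wild-type lists, with 8.50 and 4.79 in the FLAG-TET2 lists. The region at chr11:11879612-11880030 overlapped the noncoding gene 1700042O10Rik and had folds of 6.77 and 6.21 in the wild-type lists, with 9.87 and 7.47 in the FLAG-TET2 lists. A region near the other end of the gene, chr11:11822044-11823095, was stronger but had parental peaks. Its folds were 19.9 and 9.88 in wild-type lists with no knockout peak, and 17.0 and 13.4 in FLAG-TET2 against 13.1 and 7.24 in parental lists.

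The Peg10 cluster on chromosome 6 held 7 common regions, the most of any cluster, at Ppp1r9a and Sgce. Ppp1r9a had 12 and 7 peaks in the wild-type lists against 0 and 2 in the knockout lists, and 13 and 10 in the FLAG-TET2 lists against 5 and 3 in the parental lists, without overlap in either arm. Per 1000 peaks of the list, the separation in both arms was not kept. The 5 common regions of Ppp1r9a lay between 77.4 and 130 kb from the lower end of its 263 kb span. The leading region, chr6:5019129-5019687, had folds of 18.2 and 11.2 in the wild-type lists, with 16.4 and 14.1 in the FLAG-TET2 lists. Its neighbour at chr6:5019932-5020313 had the lowest fold of a common region in wild-type replicate 2, 3.59, with 9.08 in replicate 1 and 7.79 and 5.73 in the FLAG-TET2 lists. The other 3 regions (chr6:4979983-4980531, chr6:5026847-5027108 and chr6:5032860-5033662) had folds of 6.14 to 14.2 in the wild-type lists and 6.41 to 13.7 in the FLAG-TET2 lists. Between them, at chr6:5015234-5015528, stood a region of FLAG resin alone, with folds of 23.0 and 18.8 in the FLAG-TET2 lists against 35.5 and 18.9 in the parental lists.

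Sgce, which is expressed from the paternal copy and lies head to head with Peg10, a gene derived from a retrotransposon, had 5 and 3 peaks in wild-type against 0 and 3 in knockout lists. It had 5 and 4 in FLAG-TET2 against 1 and 0 in parental lists. The knockout replicate 2 count equalled that of wild-type replicate 2, so the groups met in the TET2 arm, while they did not overlap with the FLAG resin (exact permutation p = 0.111, adjusted p = 0.522). Its common regions, chr6:4738739-4739146 and chr6:4739818-4740190, lay 8.26 and 7.20 kb inside the Peg10 end of the gene. The folds of the region 8.26 kb inside were 8.31 and 5.07 in the wild-type lists, with 8.02 and 6.16 in the FLAG-TET2 lists. Those of the region 7.20 kb inside were 7.42 and 6.22 in the wild-type lists, with 11 and 7.75 in the FLAG-TET2 lists. Peg10 itself had 2 and 0 peaks in wild-type against 0 and 1 in knockout lists, and 3 and 0 in FLAG-TET2 against 0 and 0 in parental lists, none of them replicated.

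Asb4, an ankyrin-repeat gene at the far end of the cluster, carried an anti-FLAG specific region that was also a control region. At chr6:5423243-5424063 the folds were 25.5 and 15.5 in wild-type and 11.7 and 18.6 in knockout lists, and 12.9 and 10.3 in FLAG-TET2 lists with no parental peak. The TET2 antibody enriched this region in cells without TET2 as well as with it.

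The Peg3 cluster on chromosome 7 held 2 common regions, both in Usp29. Usp29 had 4 and 2 peaks in wild-type against 0 and 1 in knockout lists, and 6 and 4 in FLAG-TET2 against 3 and 0 in parental lists, again without overlap. At chr7:6770196-6770944, 40 kb downstream of the Usp29 start, which faces that of Peg3, the folds were 12.3 and 7.88 in the wild-type lists, with 8.96 and 10.3 in the FLAG-TET2 lists. At chr7:6760276-6760583 they were 11.3 and 6.32 in the wild-type lists, with 12 and 6.83 in the FLAG-TET2 lists. Anti-FLAG specific regions flanked the pair, at chr7:6753495-6753750 and chr7:6784679-6785047, so all 4 specific regions of the gene lay 23.0 to 54.3 kb from its start. Peg3, a zinc finger gene, had 1 and 0 peaks in wild-type and none in knockout lists, and 4 and 1 in FLAG-TET2 against 2 and 0 in parental lists. Zim1, the maternally expressed zinc finger gene beside it, had 1 and 0 in wild-type against 0 and 1 in knockout, and 2 and 0 in FLAG-TET2 against 2 and 0 in parental lists.

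Plagl1 on chromosome 10 had the highest fold of a common region in wild-type replicate 1 and in FLAG-TET2 replicate 1. At chr10:13107638-13108679, 17.3 kb downstream of the start, the folds were 18.9 and 7.77 in the wild-type lists, with 21.2 and 12.6 in the FLAG-TET2 lists. The region was 1042 bp wide, the widest of the 16, and ranked above 97.3% and 69.2% of wild-type peaks and 95.0% and 88.1% of FLAG-TET2 peaks. The gene had 5 and 2 peaks in wild-type against 0 and 3 in knockout lists, which overlapped, and 6 and 3 in FLAG-TET2 against 0 and 0 in parental lists, which did not (exact permutation p = 0.111, adjusted p = 0.522). At its start, where the noncoding gene Hymai overlaps, the region chr10:13090580-13090957 had folds of 5.99 and 4.90 in the wild-type lists against 6.01 in knockout replicate 2, and 6.30 and 4.30 in FLAG-TET2 lists with no parental peak. The start was therefore FLAG specific and not TET2 antibody specific.

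The Kcnq1 cluster, the largest with 8 of the genes, held 1 common region, in Kcnq1. At chr7:143124325-143124708, 17.6 kb from the lower end of the 320 kb span, the folds were 17.4 and 13.9 in the wild-type lists, with 11.9 and 8.91 in the FLAG-TET2 lists. Kcnq1 had 11 and 2 peaks in wild-type against 0 and 3 in knockout lists, and 7 and 3 in FLAG-TET2 against 4 and 1 in parental lists, and the groups overlapped in both arms (exact permutation p = 0.222, adjusted p = 0.652). Within the span of Kcnq1ot1, the long noncoding RNA whose promoter is the imprinting control region of the cluster, a single region had both wild-type peaks and no other. It was chr7:143289227-143289429, with folds of 7.74 and 6.95. Other regions within Kcnq1ot1 had peaks in parental replicate 1, wild-type replicate 1 or a FLAG-TET2 list, but in no case in both replicates of a group. Among them, chr7:143294411-143294618 had folds of 8.74 in FLAG-TET2 replicate 1 and 7.38 in parental replicate 1. Outside the Kcnq1 gene, chr7:143437477-143438146 was a region of the FLAG resin, with folds of 12.6 and 9.56 in the FLAG-TET2 lists against 15.5 and 11.1 in the parental lists, and 5.99 in wild-type replicate 1.

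The other Kcnq1 cluster genes differed by reagent. Cd81, a tetraspanin, and Nap1l4, a histone chaperone, had a region near an end of the gene with peaks in all 4 target lists and both parental lists but no knockout list. At Cd81 (chr7:143052622-143054208) the folds were 7.10 and 4.52 in wild-type lists, and 10.1 and 6.77 in FLAG-TET2 against 9.48 and 6.85 in parental lists. At Nap1l4 (chr7:143548354-143549155) they were 7.67 and 5.66 in wild-type lists, and 9.31 and 4.51 in FLAG-TET2 against 4.44 and 4.88 in parental lists. Tssc4 had peaks in every list but knockout replicate 1 and parental replicate 2. Its region at chr7:143068653-143069962 had folds of 10.3 and 6.22 in wild-type against 4.75 in knockout replicate 2, and 7.24 and 6.34 in FLAG-TET2 against 6.58 in parental replicate 1. Ascl2, a transcription factor of the trophoblast, carried TET2 antibody peaks in both genotypes. At chr7:142967362-142968554 the folds were 13 and 6.79 in wild-type against 5.24 and 10.3 in knockout lists, and 5.05 in FLAG-TET2 replicate 1 alone of the FLAG resin lists. Cdkn1c, the cell cycle inhibitor p57, had 3 and 1 peaks in wild-type against 0 and 2 in knockout lists. Phlda2 had 2 and 1 in wild-type against 0 and 1 in knockout lists, and neither gene had a peak with the FLAG resin. Slc22a18 had 1 peak in wild-type replicate 1 and 1 in FLAG-TET2 replicate 1.

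**Figure D3:**
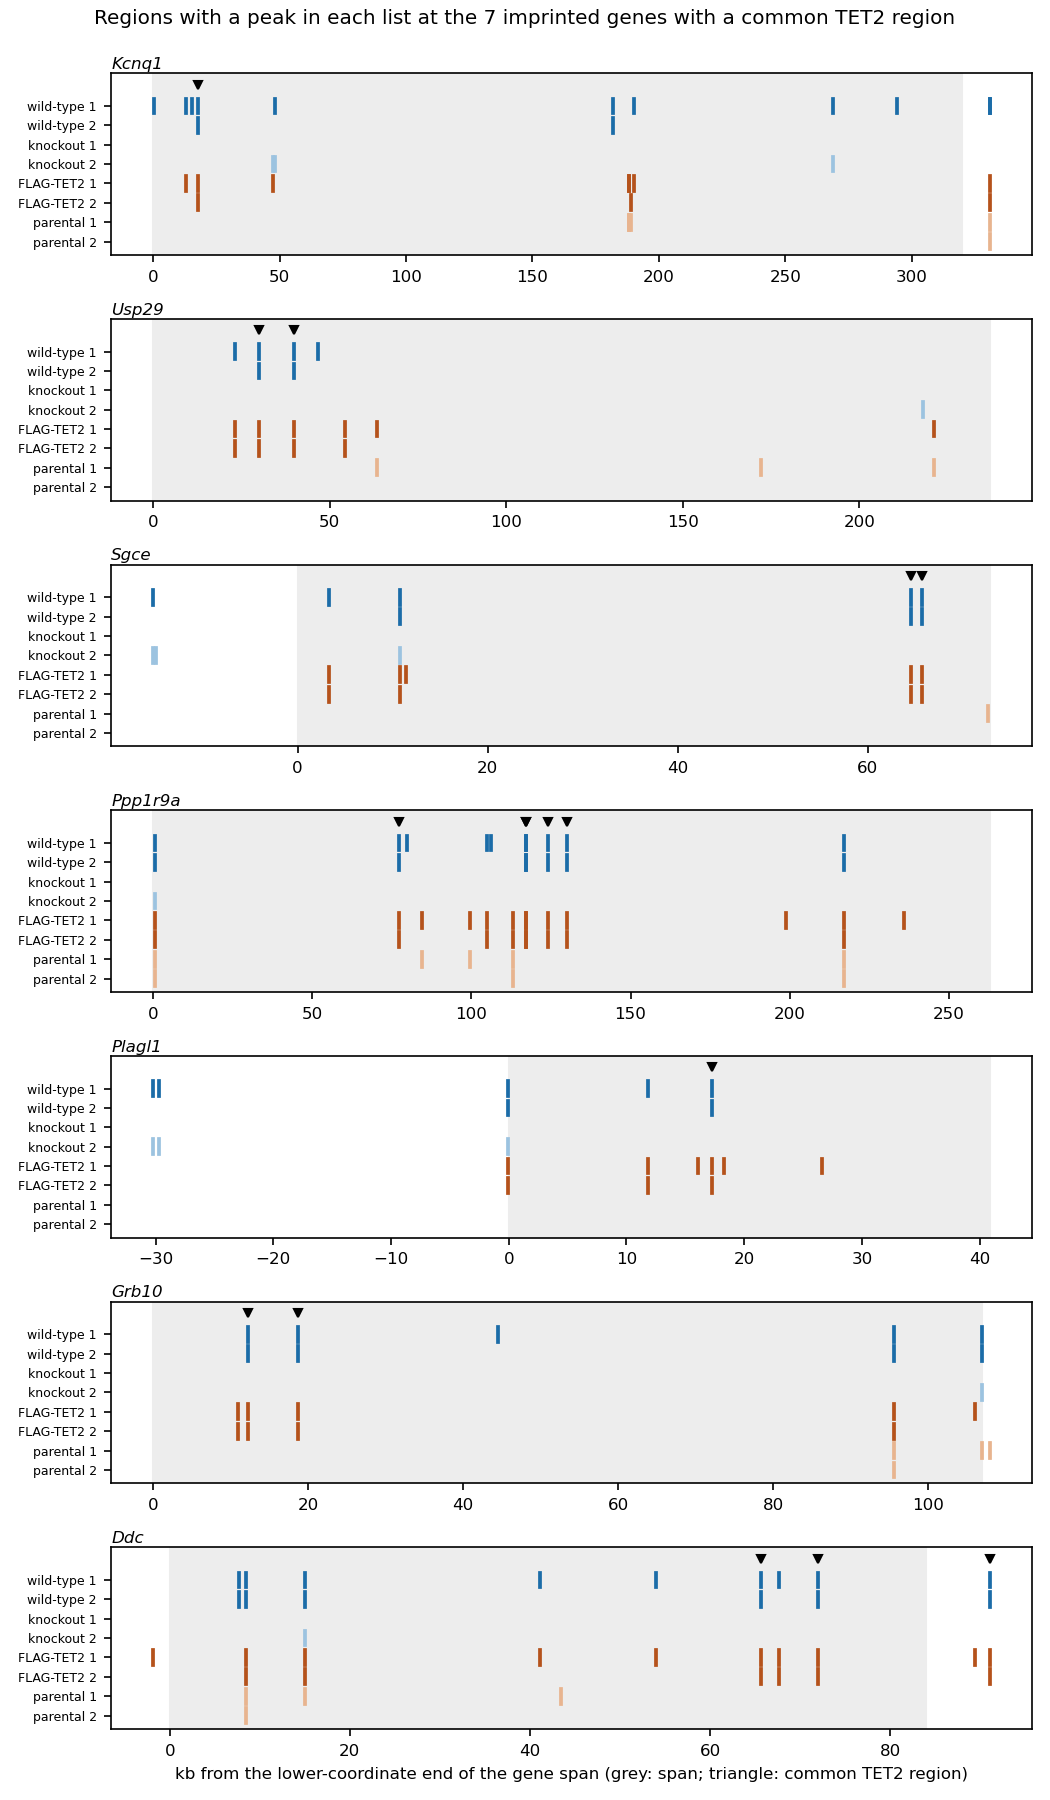
Position of merged regions with a peak in each of the 8 lists (rows) at the 7 imprinted genes with a common TET2 region, in kb from the lower-coordinate end of the gene span (grey), with triangles over the 16 common regions. Knockout replicate 1 has no mark at any of the 7 genes, and all triangles but 1 lie over the grey spans.

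The 16 common regions had fold enrichments like those of the 4521 common regions of the series. Their median folds were 10.5 and 7.05 in the wild-type lists and 11.5 and 8.10 in the FLAG-TET2 lists, beside 10.4, 6.92, 11.9 and 7.19 in the series. Of the 16, 15 (93.8%, all but the Ddc region named above as outside) overlapped the span of their gene. In the series this held for 60.3% of the common regions given to a gene. None of the 13 common regions at genes with a listed start lay within 1 kb of a start. No share of the series is given beside that count.

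**Figure D4:**
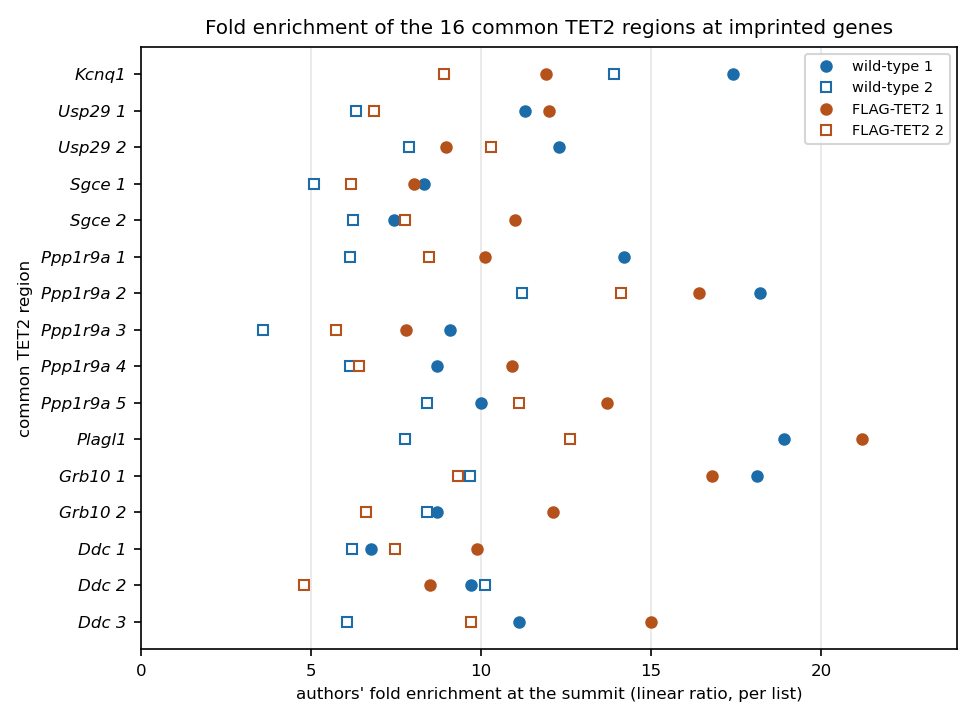
Fold enrichment given by the authors (horizontal axis, linear ratio) of each of the 16 common regions (rows, numbered by coordinate within a gene) in wild-type and FLAG-TET2 replicates 1 and 2. The points run from 3.59 at the third Ppp1r9a region in wild-type replicate 2 to 21.2 at Plagl1 in FLAG-TET2 replicate 1.

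Many regions present in all target lists were also present in a control list, as elsewhere in the series. Of 203 merged regions at the 41 genes, 35 had a peak in all 4 target lists, and 19 of those (54.3%) also had a control peak, beside 62.1% of such regions in the series. The control peak was in parental replicate 1 for 15 of the 19, in knockout replicate 2 for 10, in parental replicate 2 for 8 and in knockout replicate 1 for 2. Regions in a single list numbered 82, of which 39 were in FLAG-TET2 replicate 1, the longest list, and 22 regions were in control lists alone. No region had a peak in all 8 lists. Counts over the series are not given beside these. All 4 FLAG resin lists shared 15 of the 203 regions, beside 8001 of 79350 in the series, and 5 of the 15 had no TET2 antibody peak. All 4 TET2 antibody lists shared 7 of the 203, beside 1730 of 79350 in the series, and 3 of the 7 had no FLAG resin peak.

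Igf2r carried the region with the highest fold at any of the 41 genes in wild-type replicate 1 and in both knockout lists, so it was enriched without TET2 as well. The region chr17:12769056-12770168 spans the Igf2r start and overlaps Airn, the noncoding RNA that silences the paternal copy. Its folds were 26.6 and 14.7 in wild-type against 18.5 and 31.6 in knockout lists, and 6.85 and 6.62 in FLAG-TET2 against 5.04 in parental replicate 1. It ranked above 99.5% and 98.4% of wild-type peaks and above 97.0% and 99.7% of knockout peaks, so the genotypes overlapped.

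The Dlk1-Dio3 cluster on chromosome 12 showed the same kind of region at the Dlk1 and Dio3 starts. At Dlk1, a transmembrane relative of the Notch ligands, chr12:109452962-109453633 had folds of 9.95 and 7.39 in wild-type against 10.6 and 19.6 in knockout lists, with no FLAG resin peak. At Dio3, chr12:110278735-110279471 had folds of 9.02 and 8.65 in wild-type against 9.47 and 14.3 in knockout lists, and 5.36 in FLAG-TET2 replicate 1. Rtl1, a retrotransposon-derived gene needed in placenta, had no TET2 antibody peak at all. It had 5 and 1 peaks in FLAG-TET2 against 3 and 1 in parental lists, with its replicated region at chr12:109612972-109613220 in the noncoding gene Rian (folds of 6.98 and 4.69 in the FLAG-TET2 lists against 13.6 and 5.17 in the parental lists).

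Gnas on chromosome 2, which encodes the stimulatory G protein alpha subunit and has alternative starts used by different parental copies, had the most peaks of the list. It had 12 and 5 in wild-type against 3 and 7 in knockout lists, and 14 and 5 in FLAG-TET2 against 7 and 2 in parental lists, with overlap in both arms. Its strongest target region, chr2:174261353-174262011, lay 22.3 kb outside the span. Its folds were 18.6 and 14.5 in wild-type lists with no knockout peak, and 16.7 and 14.3 in FLAG-TET2 against 5.42 in parental replicate 1. That parental peak ranked above 13.1% of its list and kept the region out of the common class. Within the gene, chr2:174287924-174288322 over the antisense Gnasas1 had folds of 9.66 and 7.44 in wild-type against 5.92 in knockout replicate 2, and 10.6 and 7.47 in FLAG-TET2 lists with no parental peak. A further anti-FLAG specific region, chr2:174257342-174257933, had folds of 12.4 and 7.39 in FLAG-TET2 lists and 7.85 in wild-type replicate 1. Gnas also carried 6 control regions, more than any other of the genes, 2 of them with peaks in both wild-type and both knockout lists and none with the FLAG resin.

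Igf2 had 4 and 1 peaks in wild-type and none in knockout lists, and 2 and 0 in FLAG-TET2 and none in parental lists. It was free of control peaks, and its replicated region, chr7:142611095-142611397, lay 39.4 kb from the span, with folds of 14 and 7.66 in wild-type lists and 8.09 in FLAG-TET2 replicate 1. None of its 4 start windows held a peak. Ins2, an insulin gene beside it, had 1 peak, in FLAG-TET2 replicate 1.

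The Snrpn cluster, which contains the genes of the Prader-Willi and Angelman interval, had no TET2 or FLAG specific region at any of its 5 genes. Ube3a, a ubiquitin ligase expressed from the maternal copy in neurons, had a start region (chr7:59228259-59229729) with peaks in every list but knockout replicate 1. Its folds were 8.06 and 6.71 in wild-type against 6.88 in knockout replicate 2, and 14.1 and 7.06 in FLAG-TET2 against 10.8 and 7.24 in parental lists. Mkrn3, a RING finger gene, had its start region at chr7:62419681-62420514, with folds of 5.55 and 4.30 in wild-type against 4.91 in knockout replicate 2, and 9.88 and 5.44 in FLAG-TET2 against 7.73 in parental replicate 1. A second control region of Mkrn3, chr7:62406808-62407118, had folds of 5.97 in wild-type replicate 1 against 4.06 and 6.10 in knockout lists. Magel2, a MAGE family gene, had its highest-ranked region at chr7:62382735-62382916 in FLAG-TET2 replicate 1 alone (fold of 7.98), and a control region at chr7:62376975-62377333 with folds of 4.86 in wild-type replicate 1 against 5.44 in knockout replicate 2 and 4.27 in parental replicate 1. Snrpn, a splicing factor gene, had 2 and 1 peaks in wild-type and none in knockout lists, and 4 and 0 in FLAG-TET2 against 5 and 0 in parental lists.

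The Mest cluster had no target-specific region. Klf14, a Krüppel-like factor, held a region of the FLAG resin alone, chr6:30957276-30957683, with folds of 29.8 and 21.0 in the FLAG-TET2 lists against 32.9 and 22.1 in the parental lists and no TET2 antibody peak. Mest had 2 and 0 peaks in wild-type and none in knockout lists, and 4 and 1 in FLAG-TET2 against 1 and 0 in parental lists. Copg2, a coatomer subunit gene, had 1 and 0 in wild-type and none in knockout lists, and 2 and 1 in FLAG-TET2 against 1 and 0 in parental lists.

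The remaining genes stand alone or with Nnat. Blcap had 3 and 2 peaks in wild-type against 0 and 1 in knockout lists, and 12 and 2 in FLAG-TET2 against 7 and 1 in parental lists, and its highest-ranked region (chr2:157571564-157571769) was in FLAG-TET2 replicate 1 and parental replicate 1 alone. Its start carried 2 anti-TET2 specific regions, of which chr2:157566461-157566993 had folds of 10.2 and 5.31 in wild-type lists with no knockout peak, and 10.4 and 8.57 in FLAG-TET2 against 8.42 in parental replicate 1. Commd1, a regulator of copper handling, had a like pattern at chr11:22981881-22982429, with folds of 7.97 and 5.52 in wild-type lists and no knockout peak, and 9.77 and 6.60 in FLAG-TET2 against 7.01 in parental replicate 1. At Inpp5f, a phosphoinositide phosphatase, the start region (chr7:128611397-128611926) had folds of 7.10 and 4.52 in wild-type lists, 4.19 in FLAG-TET2 replicate 1 and 6.19 in parental replicate 1. Its stronger region, chr7:128687813-128688390, belonged to the FLAG resin, with folds of 12.8 and 10.2 in the FLAG-TET2 lists against 14.3 and 7.94 in the parental lists. Rasgrf1, a Ras exchange factor, had a wild-type region 41 kb away at chr9:89868236-89868502 (folds of 7.97 and 5.52) and no replicated FLAG-TET2 peak. Impact, a regulator of translation, had 1 and 0 peaks in wild-type and none in knockout lists, and 5 and 1 in FLAG-TET2 against 4 and 0 in parental lists.

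The genes were also divided by the parental copy that is usually reported as expressed in mouse. Common regions were found at 2 of 18 maternally expressed genes (11.1%, Kcnq1 and Ppp1r9a), beside 13.6% of all genes. They were found at 4 of 19 paternally expressed genes (21.1%, Usp29, Sgce, Plagl1 and Ddc). Of 4 genes with isoform- or tissue-dependent imprinting, Grb10 carried them (25.0%). Control regions were at 10 of 18 (55.6%), 6 of 19 (31.6%) and 4 of 4 (100%) genes of these classes, beside 41.7% of all genes. The assignment comes from background knowledge and differs between tissues for some of the genes, and these counts carry no test.

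Start windows, from 250 bases before to 50 after a RefSeq start, were listed for 32 of the 41 genes, with 48 windows in all. A peak in both wild-type lists overlapped a window of 11 of the 32 genes (34.4%), beside 28.6% of 17492 genes, and a peak in at least 1 knockout list a window of 12 (37.5%), beside 16.7%. A peak in both FLAG-TET2 lists overlapped a window of 8 genes (25.0%), beside 29.6%, and a peak in at least 1 parental list a window of 12 (37.5%), beside 33.1%. A peak in any list overlapped a window of 23 genes (71.9%), beside 55.6% of all. Peaks of all 4 target lists reached the windows of 6 genes (18.8%), beside 19.7%, and these were Blcap, Commd1, Igf2r, Mkrn3, Plagl1 and Ube3a. In each of the 6 a control list also had a peak there, so 0 of 32 had all 4 target peaks and no control peak, beside 2.56% of all genes. The knockout share departed most from the background, and at 11 of those 12 genes (91.7%, all but Rasgrf1) a wild-type list also had a peak in a window. No such share over all genes is given beside it, so it is not read as particular to these genes.

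CG content followed the peaks at starts as it did for all genes. The 48 windows of imprinted genes were richer in CG, with a median of 12, beside 6 over all 32851 windows. The part of this difference in the shares of genes with a start peak was not tested. The 29 windows of imprinted genes with a peak in any list had a median of 16 CG dinucleotides in the 250 upstream bases, and the 19 without had 5. Over all genes the medians were 18 in 13199 windows with a peak and 3 in 19652 without. Of the sequences printed above, the Grb10 window has 40 CG dinucleotides, Igf2r 27, Igf2 22, Dio3 and Phlda2 21, Plagl1 19, Mest 14 and Blcap 12. A high CG count did not go with a peak in every case, since Igf2 with 22 had none. The hexamer TGCCGC, the core that ZFP57 binds when methylated, was found on either strand in 6 of the 48 windows (12.5%), beside 8.68% of 32851 windows. These were at 5 genes, Copg2, Mest, Plagl1, Slc22a2 and Zim1, and the Mest windows counted overlap almost wholly. The core AAGGTCA of oestrogen-related receptors was found in 1 window (2.08%), at Ddc, beside 4.08%. The octamer core TGCAAAT was found in 2 (4.17%), at Asb4 and Commd1, beside 3.56%. A match describes letters in this window and does not show a bound site.

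**Figure D5:**
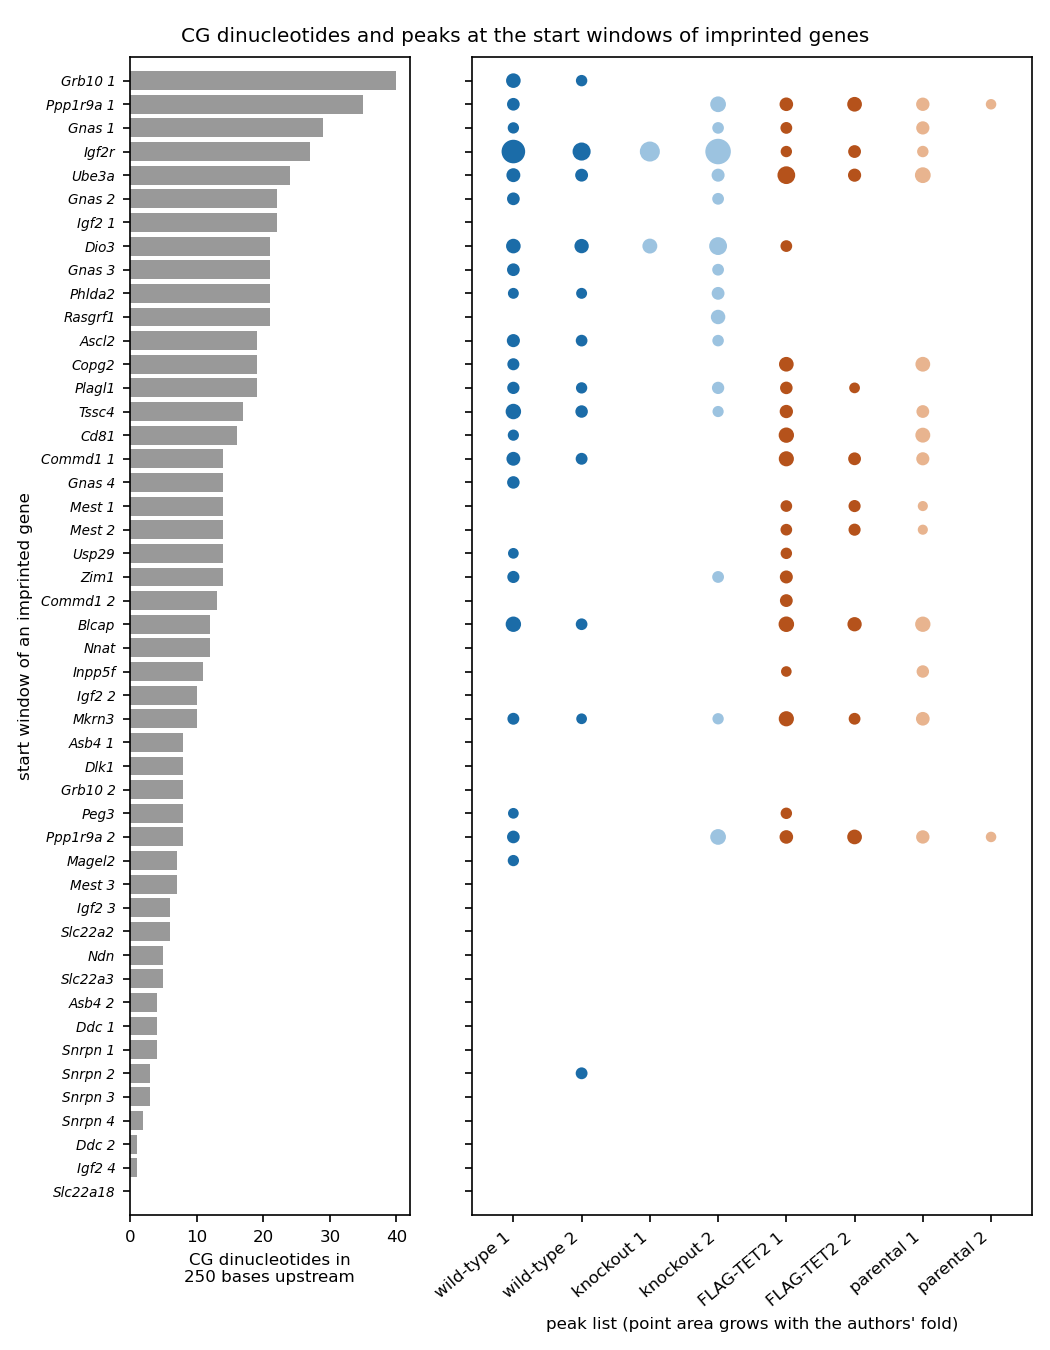
CG dinucleotides in the 250 bases upstream of each of 48 starts of imprinted genes (left, horizontal bars) and the peaks over each window in the 8 lists (right, point area growing with the authors' fold). Points gather in the rows with many CG dinucleotides, and the Igf2 row with 22 has none.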

How the data were processed

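ChIP-seq peaks of 8 immunoprecipitations were analysed, 2 in each of 4 groups. Bowtie2, DESeq2, DiffBind, MACS2, Trimmomatic and the mm10 build are listed in the processing notes of the submitters, without versions or order. Each deposited list gives, as computed by the authors for each library, peak positions, a score, a summit fold enrichment (linear ratio), −log10 p and −log10 q values and a summit offset. Read counts and depth are not given in the sources used here, so no count model was run.

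Peaks on the 21 assembled chromosomes were kept and merged where they shared at least 1 bp (Python 3.11.15, pandas 2.3.3, numpy 2.4.6), which gave 79350 regions in all. Where a list had several peaks in a region, the highest fold is given. A region was a common, anti-TET2 specific, anti-FLAG specific or control region by presence in lists, and gene spans, starts and promoter sequences came from RefSeq for GRCm38.p6. Peak numbers per gene were compared by a two-sided exact permutation test within reagents, adjusted by Benjamini-Hochberg over all genes with a peak. Merging, the classes of regions and the permutation test were tried on simulated data, and gene assignment was not.

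All 41 genes were accounted for. Those with a common, specific or control region were described by the region ranked highest by −log10 q over its target lists, common regions first, and further regions of the genes were chosen after their values were seen. The gene list, the other lists and the tests were chosen with earlier results of these data known. Alternatives were a stricter q, shortened lists, summit windows, other distances, other control sets, each library left out and the replicate number as a block.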

Additional observations from a re-analysis of the deposited data

How the results depend on the processing

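The 7 genes with a common region were retained under every other setting tried except shortened lists, in which each list kept its 2259 leading peaks. There 0 imprinted genes had a common region (0 common regions), beside 1.01% of all genes, and 0 an anti-FLAG specific region, beside 1.18%. An anti-TET2 specific region was found at 5 (12.2%), beside 4.65% of all genes. More peaks in every target than every control list were found at 0, beside 0.864% of all genes. The log2 ratio of shares was then −0.30 over both arms, 0.09 for the TET2 antibody and −0.68 for the FLAG resin. Where knockout lists alone served as controls, 12 genes (29.3%) had a common region (25 regions), beside 26.2% of all genes. An anti-FLAG specific region was then found at 18 (43.9%), beside 45.3% of all genes. Peaks per 1000 of the list left 2 genes (4.88%) with more peaks in every target list, beside 7.26% of all genes. Shortened lists hold fewer peaks and the knockout-only set fewer controls by construction, and the cause of the change per 1000 peaks was not tested. The comparison with all genes also moved with the distance rule. With overlap of the span only, the 7 genes with a common region (17.1%) stood beside 8.62% of all genes, and within 10 kb beside 11.4%. In both settings 6 genes (14.6%) had more peaks in every target list, beside 6.52% with overlap only and 8.49% within 10 kb. The part of gene length in this was not tested.

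Leaving out each library in turn gave 16 to 22 common regions, at 7 to 10 genes (17.1% to 24.4%), beside 13.6% to 20.3% of all genes. An anti-TET2 specific region was found at 15 to 28 genes (36.6% to 68.3%), beside 32.0% to 53.6% of all genes. The 28 came without wild-type replicate 2. An anti-FLAG specific region was found at 9 to 29 genes (22.0% to 70.7%), beside 24.1% to 52.8% of all genes. The count was 29 without FLAG-TET2 replicate 2 and 18 without parental replicate 1. Genes with more peaks in every target list numbered 4 to 7 (9.76% to 17.1%), beside 9.45% to 21.2% of all genes. The log2 ratio of shares was −0.20 to 0.02 over both arms, −0.47 to −0.39 for the TET2 antibody and 0.02 to 0.47 for the FLAG resin. Over these results and settings, 106 values stayed within the limits used, 17 moved and 2 were reversed beyond them. Within the limits, the ratio over both arms still changed sign. It went from −0.1 to 0.03 with the stricter q and to 0.02 without parental replicate 1.

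The replicate numbers are not shown to pair libraries, as the deviations of same-numbered libraries correlated at −0.11 (wild-type and knockout) and 0.21 (FLAG-TET2 and parental) over genes. With the same-numbered control as a replicate block, 7 genes (17.1%) had a common region, beside 14.5% of all genes. An anti-TET2 specific region was then found at 16 (39.0%), beside 33.6%, and an anti-FLAG specific region at 9 (22.0%), beside 25.2%. More peaks in every target list were found at 6 (14.6%), beside 17.0% of all genes, and the log2 ratio of shares over both arms was −0.09. With the numbers crossed, a setting chosen after seeing the data, 8 genes (19.5%) had a common region, beside 15.2% of all genes. Giving peaks to the nearest gene of any type, also chosen after seeing the data, gave 7 (17.1%), beside 11.3%. Unknown depth limits every count, since a region absent from a short list such as knockout replicate 1 may be below its detection.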

Other observations

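Among 24 genes whose products set, keep or remove imprints, 8 had a common region (33.3%), beside 13.6% of all genes, and 15 a control region (62.5%), beside 41.7%. They were Setdb1, a histone H3 lysine methyltransferase that works with TRIM28, the DNA methyltransferases Dnmt3a and Dnmt3b, Dppa3, which protects methylation in the zygote, the dioxygenases Tet1, Tet2 and Tet3, and Eed, a Polycomb subunit. Tet1 had the most peaks with the TET2 antibody among them, 13 and 9 in wild-type against 0 and 0 in knockout lists, and 25 and 9 in FLAG-TET2 against 11 and 1 in parental lists, so the FLAG groups overlapped. Setdb1 had 2 and 2 in wild-type against 0 and 0 in knockout lists, and 4 and 3 in FLAG-TET2 against 1 and 0 in parental lists, without overlap. Dnmt3b had 4 and 2 in wild-type against 0 and 0 in knockout lists, and 4 and 1 in FLAG-TET2 against 1 and 0 in parental lists, and these groups met at 1 peak with the FLAG resin. No test was run on the list.

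A further list of 31 imprinted genes (of 33 symbols, Phf17 and Zfp264 not matched) gave 6 with a common region (19.4%, beside 13.6% of all genes) and 17 with a control region (54.8%, beside 41.7%). They were Gpr1 and Zdbf2, which lie side by side, Sfmbt2, a Polycomb-related gene, Gab1, a docking protein of growth factor signalling, Qpct, a glutaminyl cyclase, and Peg12. Sfmbt2 had 10 and 3 peaks in wild-type against 0 and 2 in knockout lists, and 13 and 6 in FLAG-TET2 against 0 and 0 in parental lists, without overlap in either arm. Zdbf2, a zinc finger gene, had 9 and 5 in wild-type against 1 and 3 in knockout lists, and 10 and 6 in FLAG-TET2 against 4 and 1 in parental lists, also without overlap, and held 3 common regions.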
